A study of Mus musculus with 6 samples.

Results

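The genes examined here carry the 2 classical routes of antigen presentation by the major histocompatibility complex (MHC), measured in the livers of Prox1-cKO and WT mice. They were taken by symbol from the table of reads per gene, and all 10 members were found among its 29667 genes. The class II members were the chain genes H2-Aa, H2-Ab1 and H2-Eb1, the invariant chain gene Cd74 and the regulator gene Ciita. The class I members were the heavy chain genes H2-K1 and H2-D1, the light chain gene B2m, the peptide transporter gene Tap1 and the immunoproteasome gene Psmb8. Each of the 10 had enough reads to be tested, so none was left out.

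The study asked which genes respond to the loss of Prox1, a homeobox transcription factor, in the mouse liver. The tested mice carried Alb-Cre and floxed Prox1 alleles (Alb-Cre; Prox1 f/f, named Prox1-cKO), and their controls carried the same floxed alleles (Prox1 f/f, named WT), with 3 livers of each. Alb-Cre acts in hepatocytes, the cells that make albumin, while RNA came from whole liver with every cell type it contains. The study's methods place its mouse lines on a C57BL/6 background. The sources used here do not give age, sex, treatment or the hour of collection for these livers, and the labels do not tie the libraries to animals, so p-values measure the spread between these libraries.

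MHC class II molecules are pairs of an alpha and a beta chain that show peptides from the endosomal pathway to CD4+ T cells. They are made mainly by dendritic cells, B cells and macrophages, and their genes, together with the invariant chain and the loading factor H2-DM, are switched on by the coactivator CIITA, which binds the factors assembled on a conserved promoter module and does not bind DNA itself. MHC class I molecules consist of a heavy chain and beta-2 microglobulin, are made by nearly all nucleated cells including hepatocytes, and show peptides from the cytosol to CD8+ T cells. Those peptides are cut by the proteasome, in which interferon gamma exchanges the constitutive catalytic subunits for PSMB8, PSMB9 and PSMB10, and are carried into the endoplasmic reticulum by the TAP1 and TAP2 transporter.

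The promoters of the classes were compared first. RefSeq promoters of build GRCm38.p6, spanning 250 bases before to 50 bases after a gene start, were matched for 2 of the 5 class II members and for 5 of the 5 class I members. The 200 bases before the start of both matched class II chain genes are printed 5′ to 3′ on the strand of the gene because they hold the letters of both boxes of that module. Capitals mark a GCAAC half-site, as in the RFX-binding X box, and the ATTGG core of the Y box, which binds NF-Y. The H2-Aa sequence is chr17:34287824-34288023 on the minus strand and the H2-Eb1 sequence is chr17:34305667-34305866 on the plus strand.
H2-Aa: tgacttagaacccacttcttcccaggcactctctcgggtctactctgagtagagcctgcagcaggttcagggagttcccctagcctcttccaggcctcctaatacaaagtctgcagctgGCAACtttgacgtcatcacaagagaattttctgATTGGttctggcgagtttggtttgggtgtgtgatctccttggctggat
H2-Eb1: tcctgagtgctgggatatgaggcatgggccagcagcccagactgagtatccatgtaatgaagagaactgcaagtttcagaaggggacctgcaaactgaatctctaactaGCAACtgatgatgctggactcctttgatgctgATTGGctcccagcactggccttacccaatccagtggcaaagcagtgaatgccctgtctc

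The GCAAC half-site began at base -81 of H2-Aa and the ATTGG core at base -48, a spacing of 33 bases. In H2-Eb1 they began at bases -91 and -59, a spacing of 32 bases. Either motif alone was common, since GCAAC on either strand occurred in 35.2% and ATTGG on either strand in 37.4% of 32851 mouse promoters. Both on the same strand, GCAAC first and with starts 25 to 40 bases apart, occurred in 261 promoters or 0.794%. The spacing was chosen after the sequences were seen, and a match is a match of letters only.

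The same ordered pair stood in H2-Oa, H2-Ob and H2-Eb2, which made 3 of the 14 genes of class II loading and peptide supply that had a promoter in the table. The promoters of H2-DMa, H2-DMb1 and H2-DMb2 did not hold it. It was in 0 of the 5 class I members, 0 of 7 promoters of class I loading genes and 0 of 5 promoters of immunoproteasome and activator genes. The ATTGG core without the pair stood on the gene's strand at base -16 of H2-K1, -76 of H2-D1 and -53 of B2m. It is not capitalised in the class I sequences. The absence of the pair is an absence of these letters at this spacing only, and does not show that class I promoters lack a related module. Class I promoters are printed because they held other motifs. Capitals mark GGGATTCCC, a kappa B site, and the reverse complement of GAANNGAAA, an interferon consensus sequence, in H2-K1, and GAAANNGAAA, an interferon-stimulated response element, in B2m. The H2-K1 sequence is chr17:34000348-34000547 on the minus strand and the B2m sequence is chr2:122147487-122147686 on the plus strand.
H2-K1: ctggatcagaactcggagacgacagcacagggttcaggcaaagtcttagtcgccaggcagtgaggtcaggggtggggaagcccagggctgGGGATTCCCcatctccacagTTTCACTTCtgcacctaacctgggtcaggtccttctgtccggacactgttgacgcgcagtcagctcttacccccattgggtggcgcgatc
B2m: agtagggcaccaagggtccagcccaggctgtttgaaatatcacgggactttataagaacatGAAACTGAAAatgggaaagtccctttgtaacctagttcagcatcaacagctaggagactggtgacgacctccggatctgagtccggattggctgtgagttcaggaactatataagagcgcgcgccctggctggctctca

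The kappa B site began at base -110 of H2-K1 and at base -170 of H2-D1, and the consensus sequence began at base -90 of H2-K1 and at base -150 of H2-D1. On either strand GGGATTCCC occurred in 0.353% of promoters, GAANNGAAA in 7.52% and GAAANNGAAA in 3.44%, and matches of the last pair can overlap although neither contains the other. The kappa B and consensus sequences were added to the search after the sequences were seen. The windows of Tap1 and Psmb8 held none of these 3 longer motifs.

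**Figure D1:**
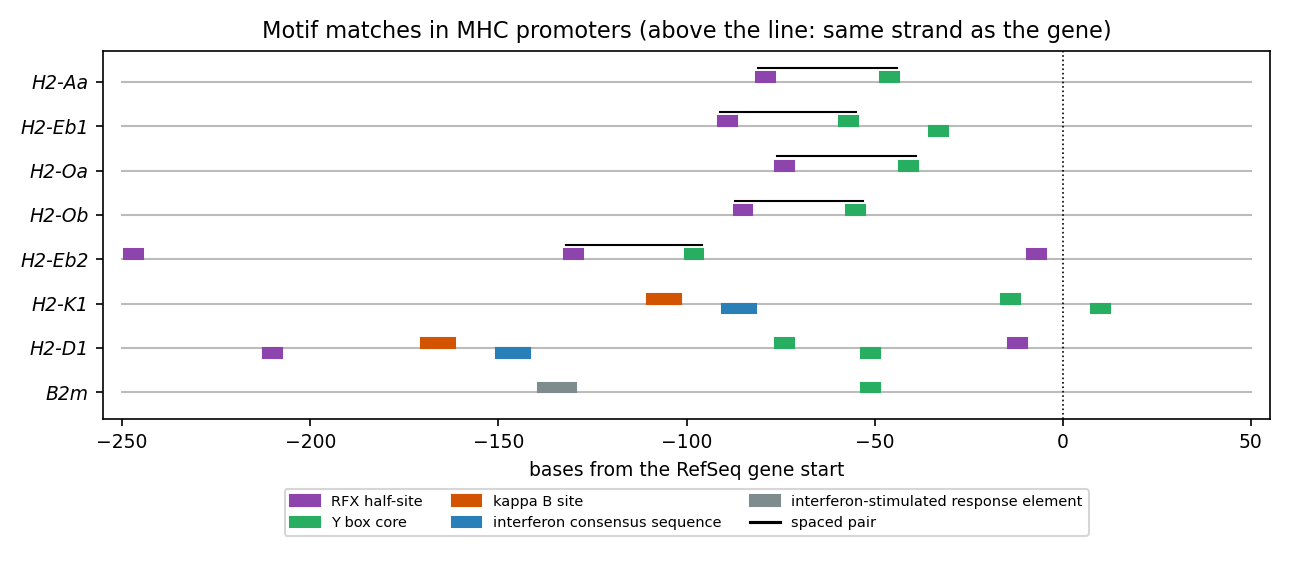
Positions of motif matches in 8 MHC promoters, with distance from the RefSeq gene start in bases on the x axis. Boxes above a line lie on the strand of the gene and boxes below it on the other strand, and a black bar joins a GCAAC half-site to an ATTGG core on the same strand; H2-Aa, H2-Eb1, H2-Oa, H2-Ob and H2-Eb2 are drawn because they hold the bar, and H2-K1, H2-D1 and B2m do not hold it.

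Libraries held 19036950 to 20537091 reads in genes in Prox1-cKO livers and 18066205 to 19921674 in WT livers. Levels are given as CPM, reads of a gene relative to the library total, scaled by the trimmed mean of M values (TMM CPM), and changes were tested with edgeR's quasi-likelihood test across 14843 genes with Benjamini-Hochberg adjustment and a threshold of 0.05. Prox1 itself was at 212, 179 and 172 TMM CPM in Prox1-cKO livers and at 558, 729 and 837 in WT livers (log2 fold change -1.91, adjusted p = 6.05e-04), and the hepatocyte gene Alb was at 73981 to 94061 TMM CPM in Prox1-cKO livers and at 50085 to 67296 in WT livers. WT replicate 3 stood apart from the other WT livers on the second principal component (9.49% of the variance), with lower levels of most leukocyte and Kupffer cell genes.

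Class II transcripts fell together and steeply. All 5 class II members were lower in Prox1-cKO livers, by a median log2 fold change of -3.27 and a range of -3.64 to -3.04, and the genotypes did not overlap for any of them. Among all genes tested, 20.2% were called lower and 14.1% higher, with a median log2 fold change of -0.02, and 26.6% had every Prox1-cKO value below every WT value. A log2 fold change of -3.04 or lower was found in 402 genes, or 2.71% of those tested, and 271 genes lay below Cd74. The class II falls were thus within the steepest 2.71% of the fit without being its extremes. In whole liver, fewer class II-bearing cells and less class II RNA per cell cannot be told apart.

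The alpha chain gene H2-Aa (chr17:34282744-34287823, minus strand, GRCm38) was at 24.4, 22.7 and 20.4 TMM CPM in Prox1-cKO livers, against 222, 290 and 200 in WT livers. Every Prox1-cKO liver lay far below the lowest WT liver. The log2 fold change was -3.40 (SE 0.19, 95% interval -3.83 to -2.97, adjusted p = 3.76e-05), a mean 10.5-fold lower. Its partner H2-Ab1, the beta chain gene of the same I-A molecule (chr17:34257689-34269419, plus strand), was at 19.6, 18.5 and 23.7 TMM CPM in Prox1-cKO livers, against 194, 240 and 163 in WT livers. H2-Ab1 changed by -3.27 (SE 0.19, adjusted p = 5.04e-05). The pair stayed in nearly the same proportion, with 0.803, 0.814 and 1.16 reads of H2-Ab1 per read of H2-Aa in Prox1-cKO livers and 0.871, 0.830 and 0.817 in WT livers, and these ranges overlapped.

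H2-Eb1 encodes the beta chain of the other mouse class II molecule, I-E (chr17:34305867-34316674, plus strand). It was at 19.1, 15.5 and 15.3 TMM CPM in Prox1-cKO livers, against 134, 176 and 100 in WT livers, a log2 fold change of -3.04 (SE 0.23, adjusted p = 1.36e-04). This was the smallest class II fall, and still 8.24-fold in the means. H2-Ea, the alpha chain gene of I-E, had no match among the genes counted, and protein was not measured. Whether these livers make an I-E molecule therefore cannot be read from these data. Cd74 encodes the invariant chain, which fills the peptide groove and guides class II to endosomes (chr18:60803848-60812652, plus strand). It was at 43.3, 44.8 and 42.1 TMM CPM in Prox1-cKO livers, against 416, 566 and 637 in WT livers, a log2 fold change of -3.64 (SE 0.20, adjusted p = 4.09e-05). The 3 Prox1-cKO livers differed little for Cd74 (SD 1.36), and WT replicate 3, which had the lowest H2-Aa, H2-Ab1, H2-Eb1 and Ciita of the WT livers, had the highest Cd74.

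Ciita, the master regulator of class II transcription, changed by a fold within the range of the chain genes (chr16:10480059-10528418, plus strand). It was at 2.06, 2.51 and 1.72 TMM CPM in Prox1-cKO livers, from 33, 46 and 29 reads, against 23.7, 21.5 and 10.9 TMM CPM in WT livers, from 538, 510 and 214 reads. The log2 fold change was -3.15 (SE 0.33, 95% interval -3.91 to -2.39, adjusted p = 5.98e-04). It was the class II member with the widest interval and the fewest reads, and its exons share 329 bases with Dexi on the other strand, so that without a stated strand some reads could be those of Dexi.

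**Figure D2:**
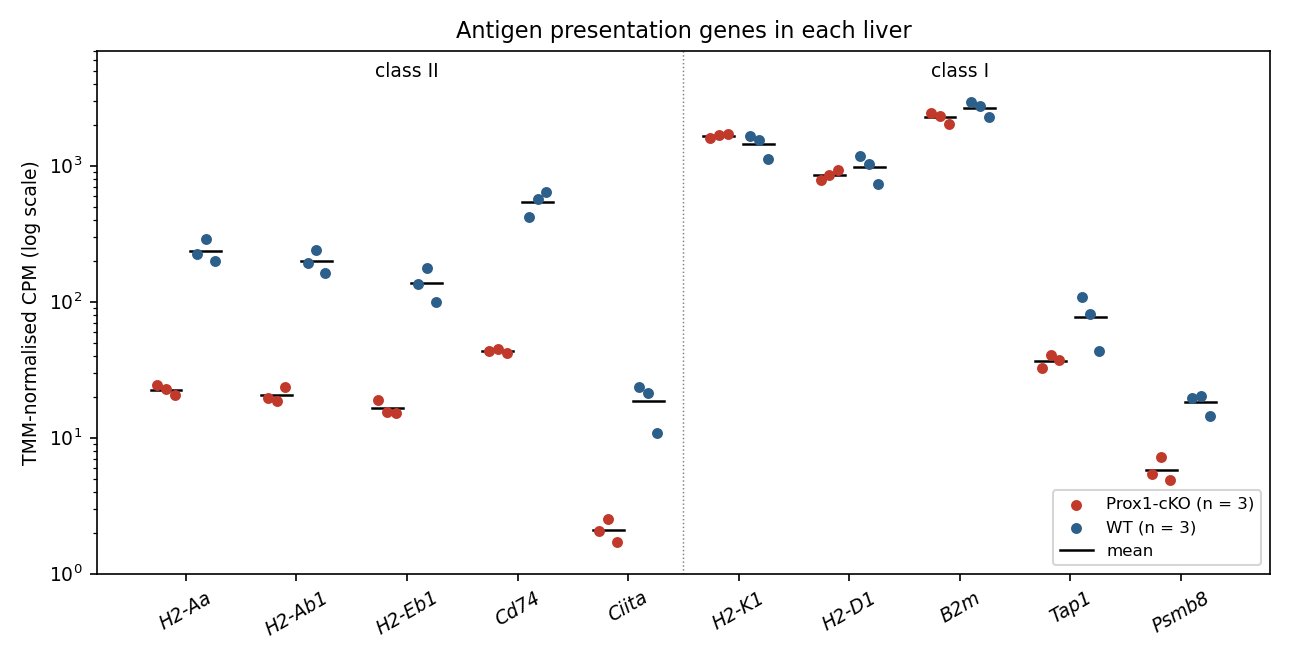
TMM-normalised CPM on a log y axis for the 10 members on the x axis, with 1 point per liver (3 Prox1-cKO in red, 3 WT in blue) and the mean as a line. The 3 Prox1-cKO points lie far below the 3 WT points for the 5 class II genes, overlap them for H2-K1, H2-D1 and B2m, and lie below them by less for Tap1 and Psmb8.

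Class I chains did not share the fall. H2-K1, which encodes the heavy chain of the K molecule (chr17:33996017-34000347, minus strand), was at 1607, 1693 and 1695 TMM CPM in Prox1-cKO livers, against 1652, 1539 and 1127 in WT livers. The genotypes overlapped, and the log2 fold change of 0.21 (SE 0.20, 95% interval -0.26 to 0.68) did not pass the test (adjusted p = 0.456); with library totals as the only scaling it was -0.21, also not called. H2-D1, which encodes the D heavy chain (chr17:35262730-35267499, plus strand), was at 788, 853 and 936 TMM CPM in Prox1-cKO livers, against 1172, 1029 and 732 in WT livers. The log2 fold change was -0.19 (SE 0.21, 95% interval -0.68 to 0.31, adjusted p = 0.532). For both heavy chain genes the lowest WT value came from WT replicate 3.

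B2m, whose protein is the light chain of every classical class I molecule (chr2:122147686-122153083, plus strand), was at 2460, 2322 and 2039 TMM CPM in Prox1-cKO livers, against 2945, 2734 and 2268 in WT livers. The ranges overlapped and the log2 fold change was -0.22 (SE 0.20, 95% interval -0.68 to 0.24, adjusted p = 0.429); with library totals alone it was -0.64 and called (adjusted p = 0.0337). For these 3 genes the intervals reached no lower than -0.68 on the log2 scale, whereas the upper bounds of the class II intervals were -2.39 or lower. That scaling alternative moved the median of all genes tested by -0.41, a shift to be read beside the value for B2m.

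The peptide supply members of class I did fall. Tap1 (chr17:34187553-34197225, plus strand) was at 32.5, 40.7 and 37.3 TMM CPM in Prox1-cKO livers, against 108, 81.5 and 43.2 in WT livers, a log2 fold change of -1.07 (SE 0.30, 95% interval -1.75 to -0.39, adjusted p = 0.0260). The genotypes were separated only by the gap between Prox1-cKO replicate 2 and WT replicate 3. The call was lost when any library other than WT replicate 3 was left out, with log2 fold changes of -1.14 to -0.75 and adjusted p of 0.0669 to 0.0872, and without WT replicate 3 it was -1.34 (adjusted p = 8.33e-04).

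Psmb8, the immunoproteasome subunit that replaces PSMB5 (chr17:34197721-34201454, plus strand), was at 5.37, 7.15 and 4.85 TMM CPM in Prox1-cKO livers, against 19.7, 20.4 and 14.3 in WT livers. The log2 fold change was -1.64 (SE 0.21, 95% interval -2.13 to -1.16, adjusted p = 1.37e-03), and it was called in every alternative run. Class I thus had 2 of 5 members called lower, beside the 20.2% over all genes, with a median log2 fold change of -0.22. Tap1 and Psmb8 each overlap a gene on the other strand, Tap1 with 212 bases of Psmb9 and Psmb8 with 498 bases of Gm20496, and some of their reads cannot be assigned with certainty.

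The classes also differed in level when scaled per kilobase of exon. In Prox1-cKO livers B2m averaged 2644 TMM CPM per kilobase, H2-K1 567 and H2-D1 333, against 3080, 490 and 379 in WT livers. Class II chains averaged 5.92 (H2-Aa), 8.02 (H2-Ab1) and 8.54 (H2-Eb1) in Prox1-cKO livers and 62.5, 77.5 and 70.4 in WT livers, and Cd74 averaged 25.8 in Prox1-cKO livers and 321 in WT livers. Per unit length, the level of Cd74 was far from that of H2-D1 in Prox1-cKO livers and near it in WT livers. Tap1 averaged 6.73 in Prox1-cKO livers and 14.2 in WT livers, and Psmb8 averaged 1.71 in Prox1-cKO livers and 5.36 in WT livers. Ciita was the lowest of the members at 0.220 in Prox1-cKO livers and 1.96 in WT livers.

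The contrast did not depend on how libraries were scaled against each other, since it was also present as a ratio of reads within each library. For every 100 reads of H2-K1 there were 1.22, 1.09 and 1.40 reads of H2-Ab1 in Prox1-cKO livers, against 11.7, 15.6 and 14.5 in WT livers, a difference of -3.49 in the log2 ratio. For every 100 reads of B2m there were 1.76, 1.93 and 2.06 reads of Cd74 in Prox1-cKO livers, against 14.1, 20.7 and 28.1 in WT livers, a difference of -3.40. Both ratios were lower in every Prox1-cKO library than in every WT library.

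The regulators of the classes were compared in the same way. NLRC5 is the counterpart of CIITA for class I genes, and Nlrc5 was at 48.8, 50.9 and 45.5 TMM CPM in Prox1-cKO livers, against 65.1, 44.3 and 34.5 in WT livers (log2 fold change 0.01, SE 0.22, adjusted p = 0.968). For every 100 reads of Nlrc5 there were 4.23, 4.93 and 3.77 reads of Ciita in Prox1-cKO livers, against 36.4, 48.5 and 31.5 in WT livers, a difference of -3.14. The last of the 4 ratios tested set H2-Ab1 against Ptprc, the gene of the leukocyte protein CD45, with 0.742, 0.8125 and 1.42 reads per read in Prox1-cKO livers and 3.09, 3.79 and 5.55 in WT livers, a difference of -2.08. In each of the 4 ratios no Prox1-cKO library reached a WT library, and a two-sided exact permutation test gave p = 0.1 for each, the smallest that 3 against 3 allow, with an adjusted p of 0.1 over the 4.

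**Figure D3:**
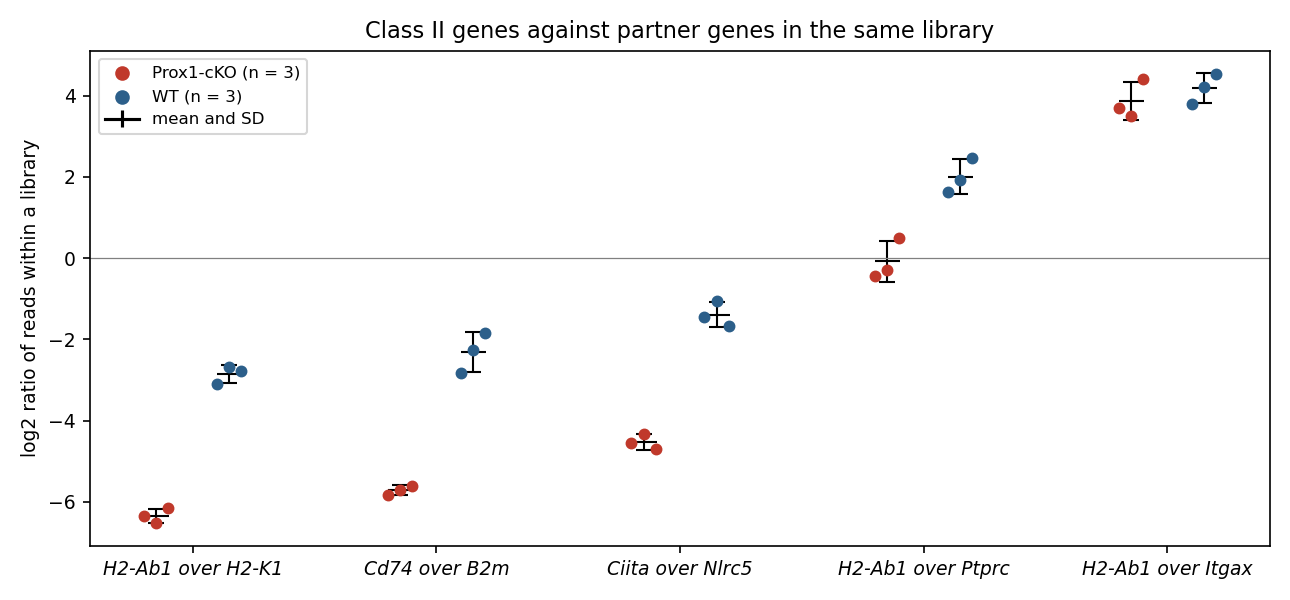
Log2 ratio of reads of a class II gene to reads of a partner gene in the same library on the y axis, with 3 Prox1-cKO (red) and 3 WT livers (blue) per ratio, and bars for the mean and SD. The genotypes are separated for H2-Ab1 over H2-K1, Cd74 over B2m, Ciita over Nlrc5 and H2-Ab1 over Ptprc, and overlap for H2-Ab1 over Itgax.

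Leukocyte genes moved in the same direction. Counts for this list and those below stand beside 20.2% of all genes tested called lower and 14.1% called higher. All 8 pan-leukocyte genes were lower in Prox1-cKO livers (median log2 fold change -1.39), with a summed level of 177 to 210 TMM CPM against 367 to 496 in WT livers. Lcp1 was the largest part of each sum. The count was 7 without Prox1-cKO replicate 1 or WT replicate 1, and 6 without Prox1-cKO replicate 2 or 3 or WT replicate 2. Lcp1, which encodes an actin-bundling protein, changed by -1.09 and Laptm5, a lysosomal membrane protein gene, by -1.31. Ptprc was at 26.4, 22.7 and 16.7 TMM CPM in Prox1-cKO livers, against 62.6, 63.5 and 29.4 in WT livers (log2 fold change -1.24, adjusted p = 0.0167). The class II falls were larger than each of the 8 pan-leukocyte falls, of which the steepest was -1.76, and the part of leukocyte number in them was not tested.

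Leukocyte genes in WT replicate 3 lay at different distances from the Prox1-cKO livers. Its summed pan-leukocyte level of 367 TMM CPM was the lowest of the WT livers, and still above the 177 to 210 of the Prox1-cKO livers. Lcp1 alone made up 244 of that 367, so the sum mostly follows this gene. Laptm5, the next highest in that liver, was at 36.8 TMM CPM. It was at 22.8 to 24.8 in Prox1-cKO livers and at 73.4 and 67.0 in the other WT livers. Among the 8 genes, Cd53 was within the Prox1-cKO range and Ptprc just above it, whereas Lcp1 was the highest of all 6 libraries, at 117, 96.6 and 111 TMM CPM in Prox1-cKO livers, against 239, 211 and 244 in WT livers. Without WT replicate 3 the log2 fold changes of the class II members were -3.49 for H2-Aa, -3.38 for H2-Ab1, -3.21 for H2-Eb1, -3.48 for Cd74 and -3.40 for Ciita, all called.

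**Figure D4:**
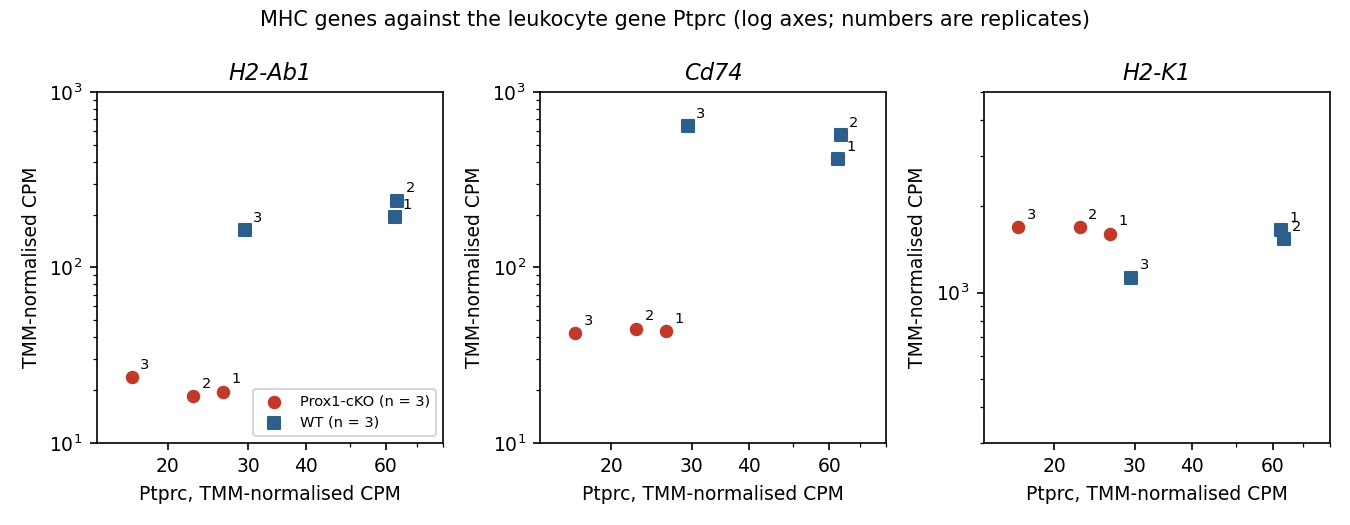
TMM-normalised CPM of H2-Ab1, Cd74 and H2-K1 (y axes, log scale) against that of the leukocyte gene Ptprc (x axis, log scale), with 3 Prox1-cKO livers as red circles and 3 WT livers as blue squares, numbered by replicate. WT replicate 3 has the lowest Ptprc of the WT livers, 29.4, while its H2-Ab1 and Cd74 lie with the other WT livers. Ptprc is 1 of 8 pan-leukocyte genes. Their sum in this liver, 367, is above the 177 to 210 of the Prox1-cKO livers, but Lcp1 alone makes up 244 of it.

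Among the cells that carry class II, marker genes moved unevenly. Of 11 dendritic cell markers tested, 4 were lower and 0 higher (median log2 fold change -1.08), with a summed level of 24.96 to 27.7 TMM CPM in Prox1-cKO livers and 33.9 to 57.2 in WT livers. Itgax, which encodes the integrin CD11c of dendritic cells and some macrophages, was at 1.499, 1.64 and 1.12 TMM CPM in Prox1-cKO livers, against 13.8, 13.0 and 7.01 in WT livers (log2 fold change -2.98, adjusted p = 6.27e-04). Zbtb46, a transcription factor gene of conventional dendritic cells, changed by 0.16. Clec9a, a receptor gene of cross-presenting dendritic cells, changed by -0.16, and neither passed the test. Both weighed most in the Prox1-cKO sums, at 11.1, 11.8 and 10.2 TMM CPM for Zbtb46 and 8.06, 7.37 and 8.16 for Clec9a. The exons of Clec9a share 184 bases with Clec1b on the same strand. Named after their values were seen, Flt3 (-1.95), Cd209a (-2.32) and Ccr7 (-2.26) were the other genes called lower. Each had 3 to 15 reads per Prox1-cKO library. The count of lower dendritic cell markers was 7 without WT replicate 3 and 7 with library totals alone.

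The fall of H2-Ab1 was close to that of Itgax. There were 13.1, 11.3 and 21.1 reads of H2-Ab1 per read of Itgax in Prox1-cKO livers and 13.99, 18.5 and 23.3 in WT livers, ranges that overlapped, with a difference of -0.32 in the log2 ratio. Itgax was chosen for this ratio after its values were seen, so no test was made, and Itgax had 24, 30 and 19 reads in the Prox1-cKO livers. Whether fewer CD11c-bearing cells account for the class II fall was not tested.

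Markers of B cells and plasma cells gave 1 lower of 8 tested (median log2 fold change -1.09), beside 20.2% lower over all genes. Their sums were 10.6 to 12.9 TMM CPM in Prox1-cKO livers and 13.8 to 42.9 in WT livers. Cd22 changed by -1.13 and Cd79a by -1.04 without passing the test, and Jchain, the joining chain gene of plasma cells, was the 1 called (-1.84, adjusted p = 0.0371). This count was 8 without WT replicate 3, 4 with the replicate block and 0 without Prox1-cKO replicate 1, 2 or 3 or WT replicate 2. Kupffer cell markers gave 8 lower of 10 (median -1.11), with sums of 539 to 706 TMM CPM in Prox1-cKO livers and 574 to 1518 in WT livers. Their count was 10 without WT replicate 3, 5 without Prox1-cKO replicate 1, and 2 without Prox1-cKO replicate 2 or 3 or WT replicate 1 or 2. Of the named Kupffer genes, C1qb changed by -0.996 and was called, while Clec4f (-0.56) and Cd5l (-1.13) were not.

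Markers listed for recruited monocytes and macrophages gave 8 lower of 9 (median -1.57), with sums of 132 to 197 TMM CPM in Prox1-cKO livers and 267 to 416 in WT livers. Csf1r and Lyz2 made up most of these sums, and the list does not separate recruited from resident macrophages. Csf1r changed by -0.95, Lyz2 by -1.20 and Cd68 by -1.41, each called. Named after their values were seen, Cx3cr1 (-3.11), Trem2 (-3.37) and Gpnmb (-3.79), macrophage genes of low level, fell as steeply as the class II members. Prox1-cKO libraries held few of their reads, 6, 8 and 10 for Cx3cr1, 3, 10 and 7 for Trem2, and 3, 7 and 2 for Gpnmb. The medians of the 4 lists of class II-bearing cells lay between -1.57 and -1.08, against -3.27 for the class II members, none of these lists had a gene with 0 reads throughout a genotype, and the part of any of these cell types in the class II fall was not tested. Of the remaining lists, T and NK cell markers gave 3 lower of 8 (median -1.22), and 0 to 5 as single libraries were left out. Neutrophil markers gave 5 of 5 (median -2.08), and 4 without any single library. With 10 counts or more in all libraries the neutrophil count was 1. S100a8, Cxcr2 and Retnlg of that list had 3 to 11 reads per Prox1-cKO library. Cholangiocyte markers gave 4 of 6 (median -0.91), 1 without Prox1-cKO replicate 1 and 2 without Prox1-cKO replicate 3. Sinusoidal endothelial markers gave 2 of 8 (median -0.17), and 1 without any single library. Each of these lists had 0 higher, but 1 endothelial marker was called higher without Prox1-cKO replicate 3. The T and NK cell and endothelial counts are to be read beside the 20.2% called lower over all genes. Hepatocyte markers gave 5 higher of 8 and 0 lower (median 1.32), including Apoa1 (1.32) and Cps1 (1.65), while Alb (0.50) did not pass the test.

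The accessory genes of class II moved unevenly. Of 13 tested genes of class II loading and peptide supply, 7 were lower and 1 higher (median log2 fold change -1.13). H2-DMa and H2-DMb1 encode the chains of H2-DM, which exchanges the invariant chain remnant for peptide, and both fell by folds near those of the class II chains. H2-DMa was at 3.06, 3.39 and 2.60 TMM CPM in Prox1-cKO livers, against 35.0, 39.7 and 23.1 in WT livers (log2 fold change -3.43, adjusted p = 9.48e-05). H2-DMb1 was at 2.69, 2.18 and 2.96 TMM CPM in Prox1-cKO livers, against 22.1, 26.4 and 17.4 in WT livers (log2 fold change -3.08, adjusted p = 9.48e-05). H2-DMb2, a further beta chain gene of H2-DM, was named after its values were seen. It fell by less (log2 fold change -1.63, adjusted p = 4.46e-03), with 14 to 20 reads per Prox1-cKO library. Of the genes of endosomal enzymes, Ifi30, the lysosomal thiol reductase gene, changed by -1.55, Lgmn, the legumain gene, by -1.13 and Ctsb, the cathepsin B gene, by -0.96, each called lower, while the cathepsin D gene Ctsd (-0.38, adjusted p = 0.0777) did not pass the test.

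Ctsl, the gene of cathepsin L and the only riser of this list, was named after its values were seen. It was at 1030.2, 833 and 766 TMM CPM in Prox1-cKO livers, against 417, 507 and 458 in WT livers (log2 fold change 0.93, adjusted p = 7.31e-03), and its exons overlap those of Gm47123 and Gm49230. The count of lower genes in this list was 10 without WT replicate 3 and 10 with library totals alone, and 6 without any other single library.

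The DNA-binding factors of the class II promoter had a share of lower calls near that over all genes. Of 7 genes for RFX subunits, CREB1 and NF-Y, 1 was lower and 0 higher (median log2 fold change 0.06). Without WT replicate 3, 1 was lower and 1 higher. Over all genes 20.2% were lower and 14.1% higher. Rfx5, a subunit of the factor that binds the X box, was at 5.68, 7.21 and 5.97 TMM CPM in Prox1-cKO livers, against 10.9, 8.92 and 9.76 in WT livers (log2 fold change -0.65, adjusted p = 0.0219). Rfx5 was not called without Prox1-cKO replicate 1 or 3 or WT replicate 1, and its exons overlap 1471 bases of B230398E01Rik on the other strand. The other 6 ranged from -0.18 for Nfya to 0.35 for Nfyb.

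Of 10 class I loading genes tested, 2 were lower and 2 higher, shares near the 20.2% and 14.1% over all genes, with a median log2 fold change of -0.00039. Tap2, the partner of Tap1, was at 8.62, 11.3 and 8.40 TMM CPM in Prox1-cKO livers, against 19.4, 17.6 and 16.0 in WT livers (log2 fold change -0.90, adjusted p = 5.46e-03), and Tapbpl, which encodes the peptide editor TAPBPR, changed by -0.60 (adjusted p = 0.0108). Calr, the gene of the chaperone calreticulin, was at 986, 918 and 972 TMM CPM in Prox1-cKO livers, against 687, 657 and 646 in WT livers (log2 fold change 0.53, adjusted p = 0.0306), and Ide, an insulin-degrading protease gene, changed by 0.44 (adjusted p = 0.0203). With library totals alone 3 were lower and 0 higher, with DESeq2 3 were lower and 3 higher, and leaving out single libraries gave 1 to 3 lower and 0 to 2 higher.

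The genes of the immunoproteasome were lower beside Psmb8. Of 5 further genes of its subunits and activator, 3 were lower and 0 higher (median log2 fold change -0.79), 5 were lower without WT replicate 3, with library totals alone or with the replicate block, and 2 were lower without Prox1-cKO replicate 1 or 2 or WT replicate 1 or 2. Psmb9 was at 9.62, 15.3 and 11.5 TMM CPM in Prox1-cKO livers, against 53.8, 42.3 and 26.7 in WT livers (log2 fold change -1.75, adjusted p = 2.97e-03). Psmb10 was at 22.7, 17.04 and 18.1 TMM CPM in Prox1-cKO livers, against 68.4, 58.8 and 31.9 in WT livers (log2 fold change -1.46, adjusted p = 5.70e-03), and the activator gene Psme1 changed by -0.79 (adjusted p = 0.0203).

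None of the 3 constitutive subunits that these replace was called lower. Psmb7 was at 68.1, 68.6 and 65.5 TMM CPM in Prox1-cKO livers, against 54.0, 48.9 and 48.2 in WT livers (log2 fold change 0.42, adjusted p = 0.0196), while Psmb5 (0.10) and Psmb6 (0.41) did not pass the test. The rise of Psmb7 was not called with library totals alone or without Prox1-cKO replicate 1 or 2 or WT replicate 2. As ratios within a library, chosen after the values were seen and not tested, there were 0.265, 0.300 and 0.159 reads of Psmb8 per read of Psmb5 in Prox1-cKO livers and 0.848, 0.953 and 0.571 in WT livers. Psmb9 per Psmb6 was 0.0996, 0.146 and 0.0901 in Prox1-cKO livers and 0.611, 0.502 and 0.348 in WT livers. Psmb10 per Psmb7 was 0.333, 0.248 and 0.276 in Prox1-cKO livers and 1.27, 1.202 and 0.662 in WT livers, so that for each of the 3 pairs every Prox1-cKO library had fewer immunoproteasome reads per constitutive read than every WT library.

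**Figure D5:**
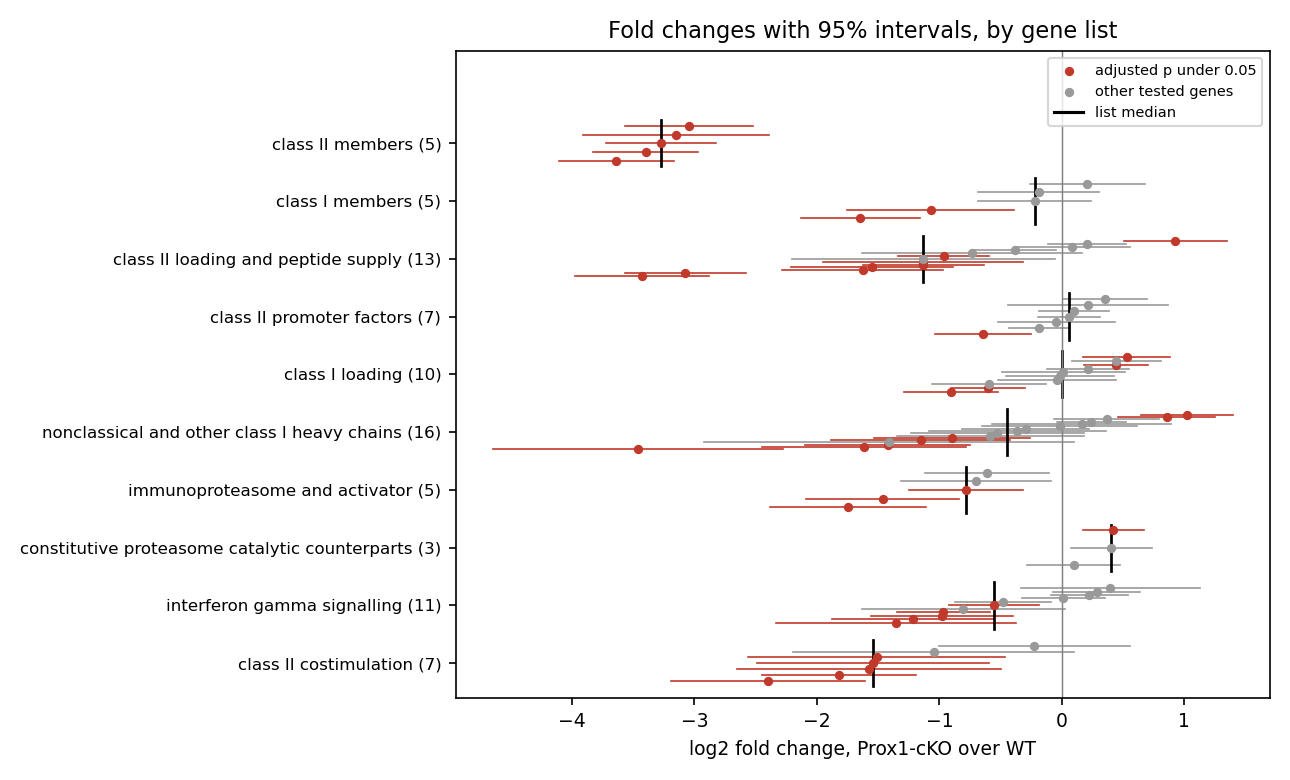
Log2 fold change of Prox1-cKO over WT on the x axis, with 95% intervals, for each tested gene of 10 lists (number tested in brackets); red genes had an adjusted p under 0.05 and black bars are list medians. The 5 class II members lie between -3.64 and -3.04, the class I members have a median of -0.22, and H2-DMa and H2-DMb1 stand apart from the rest of their list.

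Of 16 other class I heavy chain genes tested, 5 were lower and 2 higher (median log2 fold change -0.44), beside 20.2% lower and 14.1% higher over all genes. Mr1, which presents vitamin metabolites to MAIT cells, changed by -1.42 and H2-M3, which presents formylated peptides, by -1.15, both called. Cd1d1, which presents lipids to NKT cells, was at 381, 309 and 312 TMM CPM in Prox1-cKO livers, against 151, 155 and 188 in WT livers (log2 fold change 1.02, adjusted p = 3.12e-03). Fcgrt, the heavy chain gene of the neonatal Fc receptor that salvages IgG and albumin, was at 203, 218 and 273 TMM CPM in Prox1-cKO livers, against 112, 124 and 146 in WT livers (log2 fold change 0.86, adjusted p = 7.73e-03). Without WT replicate 3 the count of lower genes was 10, with library totals alone it was 9, and without any other single library it was 2 to 3.

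The balance of H2-K1 and H2-D1 differed between the genotypes although neither gene was called. There were 2.04, 1.99 and 1.81 reads of H2-K1 per read of H2-D1 in Prox1-cKO livers and 1.41, 1.495 and 1.54 in WT livers, ranges that did not overlap, with a difference of 0.39 in the log2 ratio. The pair was chosen after the values were seen and not tested. Of the transcript words of 100 bases, 0.957% of H2-K1 and 3.589% of H2-D1 also occur in another gene, chiefly H2-Q10 and H2-Q1, so a small share of their reads could be counted elsewhere. The class II chain genes, Cd74 and B2m shared no such word with another gene.

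Genes of interferon gamma signalling, the main inducer of both routes, were partly lower. Of 11 tested, 5 were lower and 0 higher (median log2 fold change -0.55), with 7 lower with library totals alone and 2 to 3 lower without any single library other than WT replicate 3. Without Prox1-cKO replicate 3, 1 was called higher. Irf1, which activates the genes of both routes, was at 23.1, 30.7 and 21.6 TMM CPM in Prox1-cKO livers, against 64.5, 51.6 and 32.5 in WT livers (log2 fold change -0.98, adjusted p = 0.0207). Irf8, a factor of myeloid cells, changed by -1.21, the receptor gene Ifngr1 by -0.97 and the kinase gene Jak2 by -0.55, each called. Ifng itself had at most 1 read in any library, and was not tested.

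Of 7 tested genes of class II costimulation, 5 were lower and 0 higher (median log2 fold change -1.54). Icosl, the ligand of the T cell receptor ICOS, was at 1.81, 1.69 and 1.24 TMM CPM in Prox1-cKO livers, against 6.83, 5.81 and 4.12 in WT livers (log2 fold change -1.82, adjusted p = 2.44e-03). The count was 5 without WT replicate 3, 4 without Prox1-cKO replicate 1, and 2 without any other single library.

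Across the 6 libraries, the genes with the pattern closest to H2-Ab1 included its own pathway. Likeness was the root mean square difference of mean-centred log2 CPM among 10135 other genes with a mean of at least 5 CPM. The closest were H2-DMb1 (0.122), H2-Aa (0.187), Car2 (0.205), H2-Eb1 (0.228) and Ccnd1 (0.238), with Cd74 at rank 18 and Ciita at rank 24. The closest to H2-K1 were Esf1 (0.0520), Rsl24d1 (0.0571), Rpf2 (0.0619), Gm10243 (0.0648) and BC005537 (0.0657), with H2-D1 at rank 1599 and B2m at rank 2988. These distances are over 6 libraries of 2 genotypes and describe likeness of values only.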

How the data were processed

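Poly(A) RNA of 3 Prox1-cKO and 3 WT mouse livers was sequenced. The deposited read counts per gene were made by the authors with HISAT2 2.1.0 and HTSeq, per the submitters' processing notes, which also name DESeq and the human build GRCh38 although the identifiers are mouse ones. The sources used here do not give the strand setting, the annotation release or the filters. A second deposited table, named for FPKM, was not used here.

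Of 29667 gene identifiers, 29641 were in GENCODE M21, which gave coordinates. Counts were tested in R 4.3.3 with edgeR 4.0.16 (filterByExpr, TMM, quasi-likelihood test, genotype as the only term), with Benjamini-Hochberg adjustment over 14843 genes. TMM factors were 0.842 to 0.893 in Prox1-cKO and 1.09 to 1.20 in WT libraries. Log2 values of the 4 tested ratios used a prior of 0.5 reads. Reads per read and the untested ratios used no prior. Promoters came from RefSeq. Alternatives were RLE factors and library totals as scaling. A looser filter took 1 count or more in total, and a stricter one took 10 counts or more in all libraries. The others were a replicate block, DESeq2 1.42.0, limma-trend (limma 3.58.1, prior count 1) and each library left out. The test scripts were tested on simulated data. Figures were drawn with matplotlib 3.10.9.

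The members and the gene lists were chosen with earlier results of these data known, and no list was tested as a set. Of 178 list genes, 3 had no match (H2-Ea, H2-L and S100a4) and 2 had one only under another symbol. The rule for names took all members, up to 5 called and non-overlapping genes per pathway list with at least 5 CPM in the higher group, and up to 3 genes per marker list by level.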

Additional observations from a re-analysis of the deposited data

How the results depend on the processing

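All 5 class II members were called lower in each of the 13 alternatives, with log2 fold changes between -4.04 and -2.82 and adjusted p of at most 0.00505. Psmb8 was also called in all 13 (-2.06 to -1.52), H2-K1 and H2-D1 in 0 and B2m in 1. Class I members called lower numbered 2 and ranged from 1 to 2 as single libraries were left out, because Tap1 lost its call without any library other than WT replicate 3, and numbered 3 with library totals alone. Library totals alone gave 725 genes higher and 6060 lower over all genes, against 2087 and 2999 with TMM, and turned the log2 fold change of H2-K1 to -0.208. Leaving out single libraries gave 1201 to 2604 genes higher, the lowest count without Prox1-cKO replicate 2, and 1999 to 3468 lower. The log2 ratio of H2-Ab1 over H2-K1 stayed between -3.61 and -3.40 as single libraries were left out, Cd74 over B2m between -3.66 and -3.16, Ciita over Nlrc5 between -3.28 and -2.97, and H2-Ab1 over Ptprc between -2.37 and -1.85.

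The replicate numbers pair the samples only by name. Deviations of same-numbered livers correlated at 0.141, 0.052 and 0.150 for replicates 1, 2 and 3, and WT replicate 2 correlated best with Prox1-cKO replicate 1 (0.058). With the replicate block, 5 class II and 2 class I members were called lower, and 2029 genes were higher and 2988 lower over all genes. With 3 libraries a genotype, the exact permutation tests of the ratios cannot give p below 0.1. Depth limits Ciita, with 29 to 46 reads in the Prox1-cKO libraries, and Itgax, with 19 to 30. It limits Cx3cr1, Trem2 and Gpnmb (2 to 10 reads) and Flt3, Cd209a and Ccr7 (3 to 15 reads) more.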
